A study of Homo sapiens with 12 samples.

Results

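The major histocompatibility region on the short arm of human chromosome 6 was covered by 77 of the 30170 regions in the ATAC-seq count table. They are all the regions that overlap chr6:29600000-33450000 of hg38. No measured value entered this choice beyond the calling of a peak, without which no region is listed, and all 77 passed the filter on low counts. From the class I end, 37 regions lay in the class I part, 20 in class III, 9 in class II and 11 in the extended class II part, and 65 of the 77 were located no more than 1 kb from an annotated transcription start site (TSS).

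Class I molecules are heavy chains, such as those encoded by HLA-B and HLA-C, that pair with beta-2 microglobulin and show peptides from inside the cell to CD8 T cells. The peptides are cut by the proteasome and carried into the endoplasmic reticulum by the transporter TAP1/TAP2. Class II molecules present peptides taken up from outside, are normally made by professional antigen-presenting cells, and need the transactivator CIITA, whereas NLRC5 acts at class I genes. The class III part holds complement, cytokine and heat shock genes among many housekeeping genes, and the extended class II part holds mainly housekeeping genes. Colorectal cancer cells can lose surface class I molecules, so the state of these promoters is of interest in a cancer line.

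Accessibility was measured in the established line HCT116, derived from a human colorectal carcinoma, with 3 libraries in each of 4 stable lines. The EV line carried an empty vector, and the EHF line carried a plasmid for the ETS factor EHF and was selected as geneticin-resistant clones. The CDX1 line carried a retrovirus for the caudal homeobox factor CDX1 with a GFP marker and was sorted for GFP, and the EHF+CDX1 line was the CDX1 line transfected with the EHF plasmid and again selected as resistant clones. Differences between lines can therefore include differences between clones, and since it is not stated whether the libraries of a line came from separate cultures, p-values measure only the spread between these libraries.

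Sequences upstream of 4 HLA starts are shown first, because these promoters share short elements that can be read by eye. Sequences run 5′ to 3′ on the strand of the gene and are from hg38, except HLA-B, for which no region was listed and which is from RefSeq (GRCh38.p14). Each stops before the start of the Ensembl canonical transcript. Capitals mark CCAAT, the box bound by NF-Y in class I and class II promoters, and GAANNGAAA, a core of the interferon-stimulated response element, on either strand. The HLA-E line is chr6:30489329-30489479 (plus strand), HLA-F is chr6:29723212-29723362 (plus), HLA-C is chr6:31272093-31272213 (minus), and HLA-B is chr6:31357180-31357429 (minus).
HLA-E: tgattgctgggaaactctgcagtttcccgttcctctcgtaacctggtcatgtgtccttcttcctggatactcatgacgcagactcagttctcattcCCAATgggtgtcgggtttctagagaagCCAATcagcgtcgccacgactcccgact
HLA-F: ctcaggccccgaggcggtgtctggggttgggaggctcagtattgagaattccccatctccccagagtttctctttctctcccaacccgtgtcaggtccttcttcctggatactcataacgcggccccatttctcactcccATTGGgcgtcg
HLA-C: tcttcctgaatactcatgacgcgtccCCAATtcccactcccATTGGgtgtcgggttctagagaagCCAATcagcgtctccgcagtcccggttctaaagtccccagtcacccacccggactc
HLA-B: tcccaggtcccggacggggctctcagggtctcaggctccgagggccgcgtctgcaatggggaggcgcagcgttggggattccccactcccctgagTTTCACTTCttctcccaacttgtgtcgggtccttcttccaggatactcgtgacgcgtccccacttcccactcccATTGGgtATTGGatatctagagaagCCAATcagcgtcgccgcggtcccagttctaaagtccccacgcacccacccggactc

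HLA-E and HLA-C held 0 and 0 interferon-type matches with 2 and 3 CCAAT matches. HLA-F held 1 CCAAT match in this window, and the HLA-B promoter held 1 interferon-type match and 3 CCAAT matches. The windows were 151 bp at HLA-E and HLA-F, 121 bp at HLA-C and 250 bp at HLA-B. The HLA-C window stops short of the place of the interferon-type match in HLA-B, so its 0 does not speak for DNA farther upstream. TAP1 and PSMB9, an immunoproteasome subunit, are transcribed in opposite directions from a shared stretch of DNA, and each had a region there: TAP1 at chr6:32853677-32853827 (shown from 32853705 on, minus strand) and PSMB9 at chr6:32853975-32854125 (plus). They are shown because neither window holds a match to either of the 2 patterns. The DNA between the 2 regions is not shown, so these windows do not speak for the whole shared stretch.
TAP1: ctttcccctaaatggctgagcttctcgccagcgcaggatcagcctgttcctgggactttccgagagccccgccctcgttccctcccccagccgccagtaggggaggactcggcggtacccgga
PSMB9: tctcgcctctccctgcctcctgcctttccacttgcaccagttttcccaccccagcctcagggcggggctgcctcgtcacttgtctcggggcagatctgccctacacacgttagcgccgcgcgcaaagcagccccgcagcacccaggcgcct

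Regions in the major histocompatibility region differed from the table as a whole in where they lay. Of the 77, 84.4% lay within 1 kb of a TSS, against 43.3% of all regions and 40.5% of those on the rest of chromosome 6. There were 20.0 regions per Mb, against 10.5 on the rest of the chromosome and 9.77 over the genome. The extended class II part was the densest, at 38.3 per Mb, and the class II part the sparsest, at 11.7 per Mb. By GENCODE 44, 57 regions touched an exon, 10 were intronic and 10 were between genes. Their median GC content was 61.8%, compared with 66.2% for other regions at starts and 56.3% for all regions.

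Sequence elements were counted over both strands in the 47 members that were exactly 151 bases long, each element searched separately and overlapping matches counted. GAANNGAAA was present in 10.6% of these, against 3.28% of all 17356 regions of that length. CCAAT was present in 31.9% against 18.7%, and TGACG, a part of the cyclic AMP response element, in 23.4% against 10.5%. These were 5, 15 and 11 of the 47 members. Among the 36 of them at starts the shares were 11.1%, 38.9% and 27.8%, against 2.36%, 18.3% and 17.3% of other regions at starts. Letters that ETS and CDX factors can bind were counted too. GGAAGT was present in 17.0% against 13.4%, and TTTATT or TTTATG in 6.38% against 17.9%. At starts GGAAGT stood at 19.4% of members against 13.7% of others, and the last pair at 5.56% against 6.02%. These are letter matches only.

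Regions were listed at a minority of the coding genes. Of the 160 protein-coding genes in the interval, 67 had a region within 1 kb of a start, or 41.9%, against 45.9% of genes in the whole annotation. Such genes were 26 of 51 in class I, 25 of 68 in class III, 7 of 21 in class II and 9 of 20 in the extended class II part. Of the 60 genes listed as housekeeping, 46 had one. A gene without a region has no count, so no level can be given for it.

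Class I and class II genes differed in how many had a region. In class I, 6 of 8 listed genes had a region at a start, among them HLA-C, HLA-E, HLA-F and the NKG2D ligands MICA and MICB, which display cell stress to natural killer cells. HLA-B and HLA-G had none, and the nearest regions lay 32790 bp and 103605 bp from their starts. In class II, HLA-DMA, a chain of the DM peptide exchanger, was the only 1 of 13 genes with a region, while none was listed at the DR, DQ or DP genes. The longest stretch without a region, 642.8 kb from 32195981 to 32838747, held 12 coding genes and contained the DR and DQ genes. In the antigen-processing list, TAP1, TAP2 and PSMB9 had regions, and PSMB8 and TAPBP did not, although 1 lay within 5 kb of TAPBP.

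Among the class III gene groups, none of 10 complement and inflammation genes, including C2, CFB and TNF, had a region within 1 kb, and HSPA1B was the only 1 of 3 heat shock genes with one. Outside the interval, 13 of 19 genes of the pathway had a region, among them B2M (the class I light chain), RFX5 and IRF1, whereas NLRC5 and CIITA did not.

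Reads had to map uniquely to be counted, so the uniqueness of the reference around each start was computed. All 80-base windows within 500 bp of the starts of HLA-B, HLA-C, HLA-DRA and HLA-DQB1 occurred once on the primary chromosome 6. The share was 76.7% at HSPA1B, 93.4% at HLA-DRB1 and 0% at C4A and C4B, which are copies of each other. On at least 1 of the 16 alternate contigs of hg38 that hold this interval, 56.6% of the HLA-B windows, 83.8% at HLA-C and 100% at TAP1 occur as well, and whether those were in the reference used is not given in the sources used here. Among the 77 regions, 4 had a near-identical copy elsewhere on chromosome 6 (at least 90% identity over at least 80% of the length): the HCG27 start, a region near ENSG00000255899, 1 of 2 HLA-C regions, whose copy lies in HLA-B, and 1 of 2 MICA regions. Their values are uncertain for that reason. HLA alleles differ in sequence between cell lines, and the part of differences between the HCT116 alleles and the reference in these counts was not tested.

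**Figure D1:**
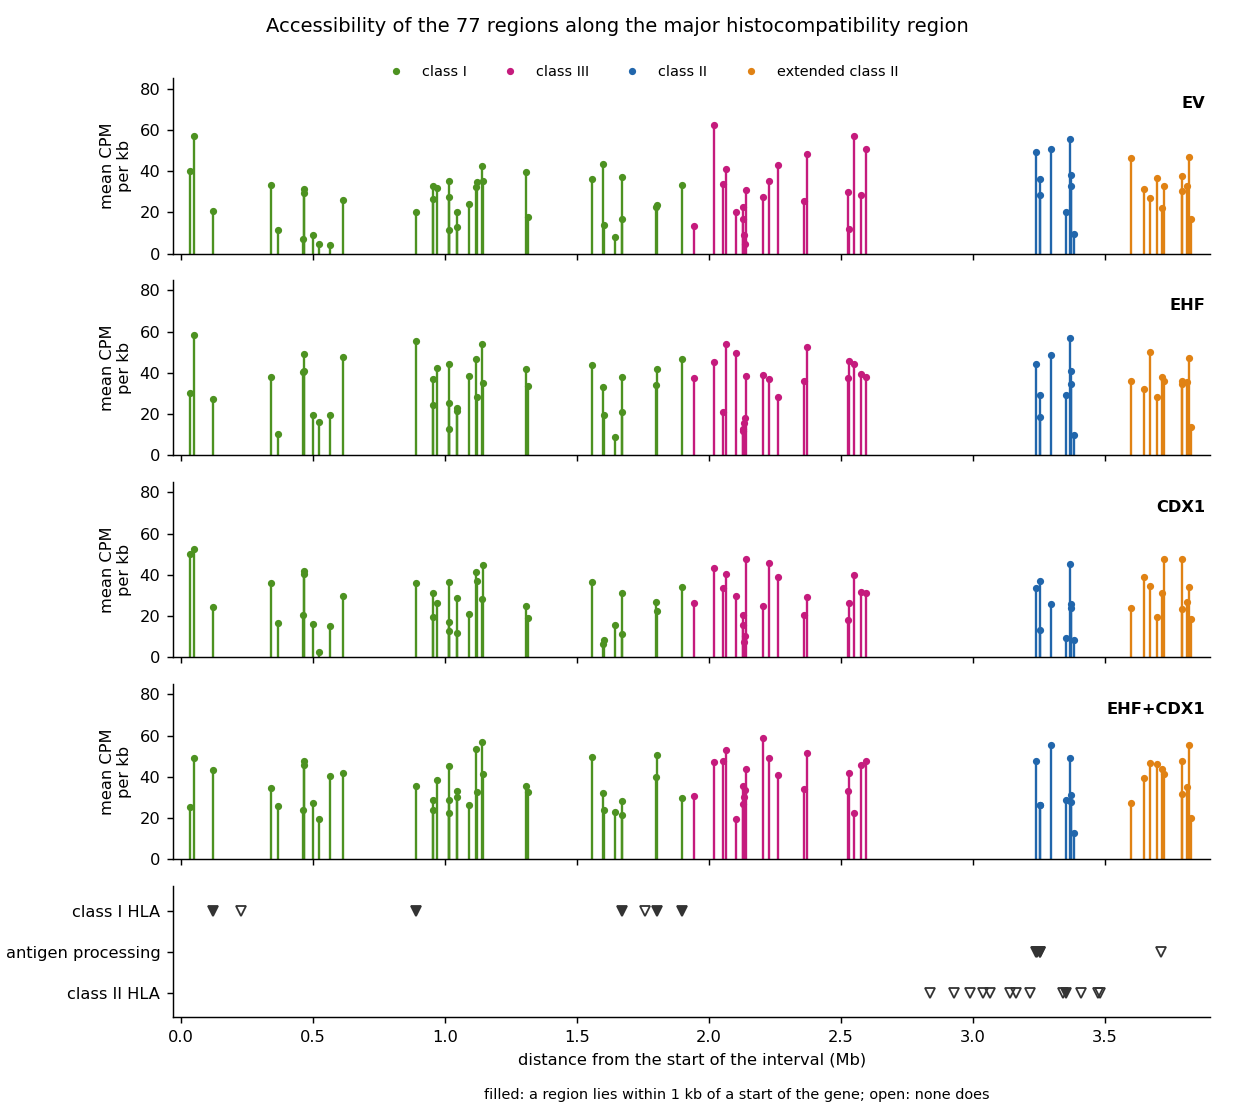
Mean CPM per kb of region length (y axis, 3 libraries) against the distance in Mb from the start of the interval (x axis) for the 77 regions in EV, EHF, CDX1 and EHF+CDX1 cells, coloured by part. Triangles mark starts of presentation genes, filled where a region lay within 1 kb; the longest stretch with no point, 642.8 kb, holds open class II triangles only.

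Library totals ran from 567366 to 2443334 counts. Regions that match mitochondrial DNA and the exons of the introduced EHF and CDX1 took much of this, leaving 148300 to 912672 counts in all other regions, and the 77 members held 344 to 487 counts per EV library, 668 to 843 per EHF library, 375 to 654 per CDX1 library and 773 to 2228 per EHF+CDX1 library. A count of 3, taken as the floor, corresponded to 0.677 to 4.51 CPM (counts scaled to the library size with edgeR's TMM factors), so single regions were measured from few reads. In EV cells, 16 members had all 3 libraries at or under 3 counts, against 3 for EHF, 8 for CDX1 and 0 for EHF+CDX1 cells. No source used here names molecular identifiers, so the floors account for counting error alone. Counts over the exons of the introduced factors matched the labels in 12 of 12 libraries. Of the epithelial marker genes 5 of 6 had a region at a start (not CDH1), with summed levels of 34.6 to 41.7 CPM over the EV libraries, 40.2 to 54.0 over EHF, 45.3 to 50.8 over CDX1 and 62.9 to 88.3 CPM over EHF+CDX1. Leukocyte markers had a region at 1 of 7 starts (CD68, with PTPRC, CD3E, CD79A, MS4A1, CD14 and SPI1 without), summing to 0 to 5.19 CPM, and fibroblast markers at 1 of 4 (COL1A2, at 1.10 to 5.91 CPM). The part of the epithelial levels in any difference below was not tested.

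Levels across the region overlapped between EV, EHF, CDX1 and EHF+CDX1 libraries. The median member had a mean of 5.22 CPM over EV libraries, 6.16 over EHF, 5.11 over CDX1 and 6.21 CPM over EHF+CDX1 libraries, beside 5.54, 6.33, 5.83 and 6.15 CPM for all regions at starts. Summed over the members and divided by their 14.796 kb, accessibility was 30.9 ± 7.03 CPM per kb (SD, n = 3) for EV, 35.4 ± 10.7 for EHF, 29.1 ± 7.32 for CDX1 and 38.0 ± 4.84 CPM per kb for EHF+CDX1 cells. A higher count in such bulk cells cannot tell more open cells from more open chromatin per cell.

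The share of the counts in all other regions that fell in the members was 0.226%, 0.156% and 0.232% in EV libraries 1, 2 and 3. It was 0.276%, 0.184% and 0.291% in EHF, 0.235%, 0.164% and 0.218% in CDX1, and 0.244%, 0.244% and 0.305% in EHF+CDX1 libraries. The 3 EHF+CDX1 libraries lay above all EV and CDX1 libraries and overlapped the EHF libraries, and library 2 was the lowest in the EV, EHF and CDX1 groups. The share of counts in all regions at starts moved too: it ran from 42.5% to 44.7% over EV, 47.7% to 52.5% over EHF, 45.9% to 51.2% over CDX1 and 46.0% to 52.7% over EHF+CDX1 libraries, and its part in the members' shares was not tested.

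**Figure D2:**
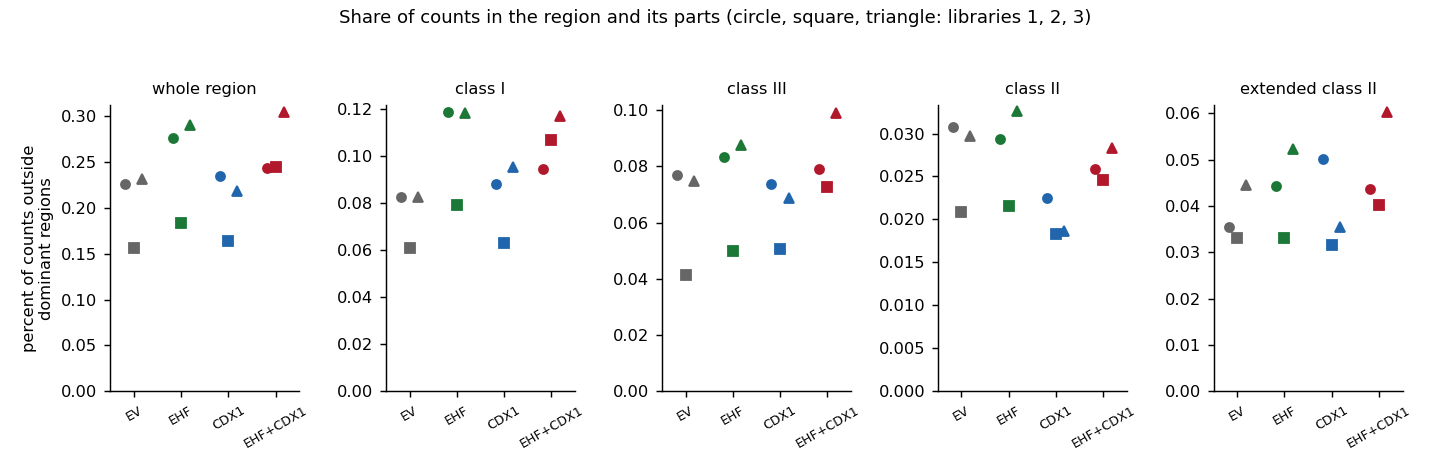
Percent of the counts outside mitochondrial matches and EHF or CDX1 exons (y axis) that fell in the 77 regions and in each part, per library, with circles, squares and triangles for libraries 1, 2 and 3 of each line (x axis). For the whole region the EHF+CDX1 libraries run from 0.244% to 0.305% and the EV libraries from 0.156% to 0.232%, with library 2 lowest in EV, EHF and CDX1.

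At HLA-F, and not at HLA-C or HLA-E, all EHF+CDX1 libraries lay above those of the other lines. HLA-F encodes a non-classical molecule. Its region overlaps alternative first exons and held 2, 6 and 2 counts in EV, 5, 8 and 5 in EHF, 5, 8 and 2 in CDX1 and 10, 31 and 8 in EHF+CDX1 libraries. Scaled, the EHF+CDX1 libraries stood at 5.94, 7.0 and 6.64 CPM, above every library of the other 3 lines, whose highest was 4.81 CPM. The difference from EV was 1.0 ± 0.61 on the log2 scale (SE) and did not pass the test (adjusted p = 0.37, edgeR quasi-likelihood test with Benjamini-Hochberg adjustment over 30154 regions).

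HLA-C had a region over its start and another in a coding exon 319 bp away. The start held 5.62 ± 2.98 CPM (SD, n = 3) over EV, 5.72 ± 2.32 over EHF, 4.69 ± 3.11 over CDX1 and 4.28 ± 0.711 CPM over EHF+CDX1 libraries, with all groups overlapping. Its log2 difference from EV in EHF+CDX1 cells was -0.28 (95% interval -1.46 to 0.89), so these counts are compatible with any difference inside that range. The exon region, which has a copy in HLA-B at 92.7% identity, was at or under 3 counts in every EV library. There the EHF+CDX1 libraries (2.49 to 4.16 CPM) lay above the CDX1 libraries (1.18 to 1.93 CPM), a log2 difference of 0.89 ± 0.84 with an adjusted p of 0.61 by edgeR.

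HLA-E, a non-classical molecule read by the CD94/NKG2 receptors, had 5, 3 and 1 counts in EV, 13, 10 and 10 in EHF, 4, 11 and 6 in CDX1 and 7, 16 and 10 in EHF+CDX1 libraries. In EHF cells it stood at 8.37 ± 3.97 CPM against 3.02 ± 2.16 in EV, a log2 difference of 1.35 ± 0.63, but EHF library 2 (4.06 CPM) fell below EV library 1 (5.49 CPM) and the adjusted p was 0.96 by edgeR. In EHF+CDX1 cells the difference from EV was 0.70 ± 0.64. The interaction compares the log2 change of EHF+CDX1 cells with the EHF and CDX1 changes added up, and it was -1.47 ± 0.84 at HLA-E (adjusted p = 0.57, edgeR).

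MICA had a region 73 bp from 1 start and another over the canonical start. The latter held 4.39, 4.84 and 1.5 CPM in EV, 4.57, 2.44 and 11.9 in EHF, 3.85, 2.89 and 3.55 in CDX1 and 7.12, 7.45 and 8.31 in EHF+CDX1 libraries. The EHF+CDX1 libraries lay above all EV and CDX1 libraries, and the differences were 0.95 ± 0.58 and 1.17 ± 0.57 on the log2 scale (adjusted p = 0.36 and 0.26, edgeR). MICB, its paralogue, had 5.04 ± 1.84, 7.08 ± 2.59, 5.18 ± 2.02 and 4.48 ± 2.85 CPM for EV, EHF, CDX1 and EHF+CDX1 cells, with all groups overlapping. Counted over the 8 class I regions, 6 were higher in EHF+CDX1 than EV cells by their fitted values, 8 were higher in EHF cells and 4 in CDX1 cells, and none passed the test.

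**Figure D3:**
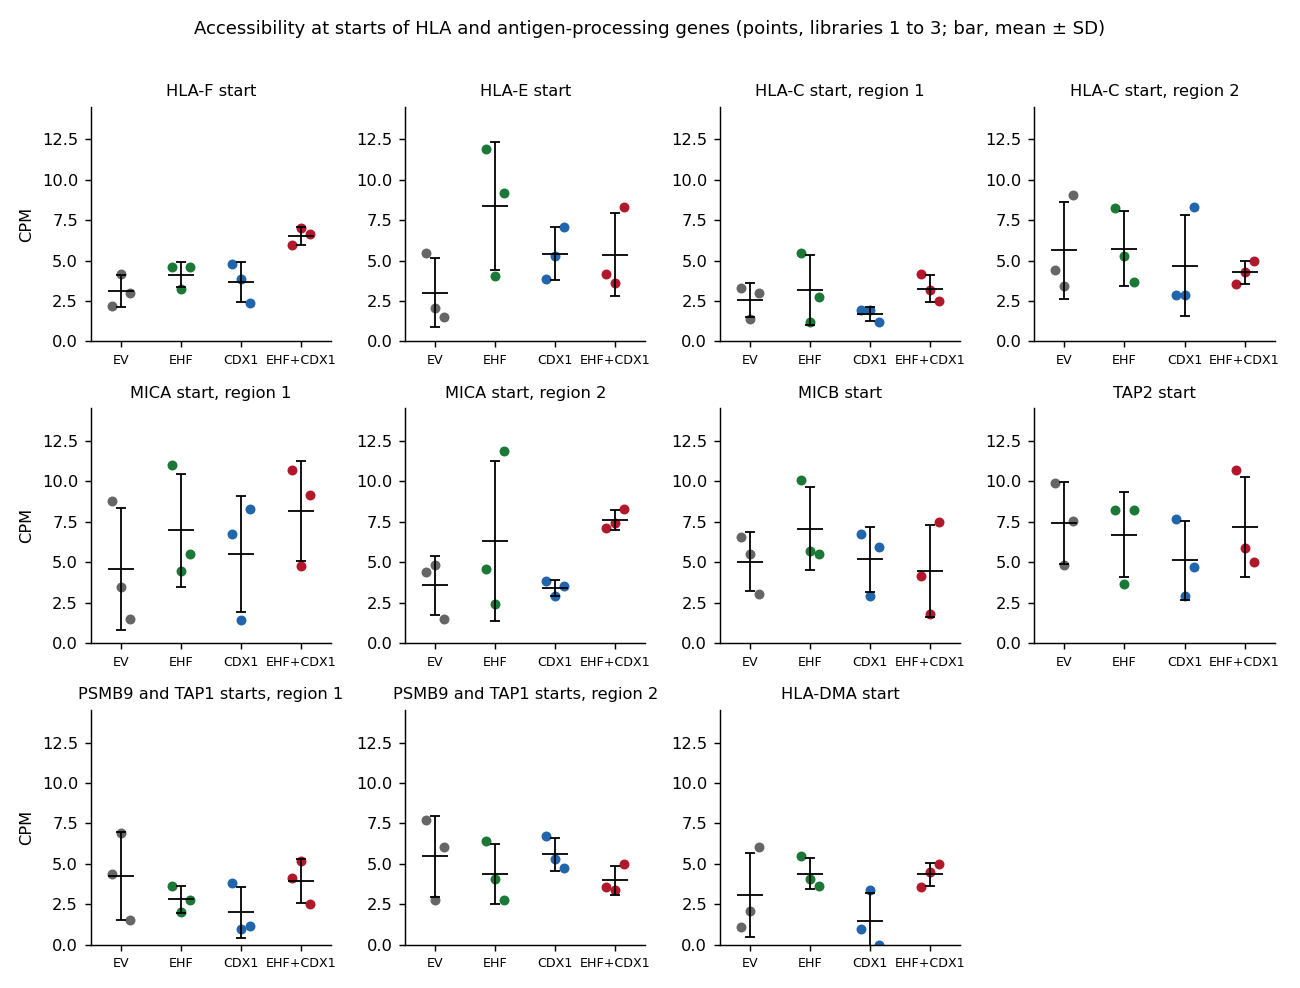
CPM per library (y axis, points for libraries 1 to 3, bar for the mean ± SD) at 11 regions within 1 kb of starts of HLA and antigen-processing genes, by line (x axis); bars are cut at 0. At HLA-F the EHF+CDX1 points (5.94 to 7.0 CPM) clear all others, whereas at MICB and the TAP1 and PSMB9 starts all lines overlap.

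None of the 3 antigen-processing regions passed the test in any comparison. TAP1, the transporter subunit, had 4, 10 and 1 counts in EV, 4, 5 and 3 in EHF, 4, 2 and 1 in CDX1 and 7, 23 and 3 in EHF+CDX1 libraries, or 4.27 ± 2.70, 2.81 ± 0.816, 2.0 ± 1.6 and 3.95 ± 1.36 CPM. The PSMB9 region held 5.49 ± 2.50, 4.40 ± 1.85, 5.59 ± 1.03 and 3.98 ± 0.876 CPM, and the region at the TAP2 start, which also lies at the start of the overlapping gene ENSG00000250264, held 7.41 ± 2.52, 6.71 ± 2.64, 5.11 ± 2.42 and 7.18 ± 3.07 CPM. All fitted differences of these 3 regions from EV in EHF+CDX1 and in EHF cells were below 0, the farthest being -0.79 ± 0.73 at TAP1 in EHF cells. Less the median of all regions, their median stayed between -0.35 and -0.24 for EHF+CDX1 and between -0.40 and -0.26 for EHF under 5 scalings of the libraries. In CDX1 cells TAP1 stood at -1.31 ± 0.80 from EV with an adjusted p of 1 by edgeR.

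The only class II gene with a region was HLA-DMA, whose region lies at the start of ENSG00000248993 as well. It held 1, 3 and 4 counts in EV, 6, 10 and 4 in EHF, 1, 7 and 0 in CDX1 and 6, 20 and 6 in EHF+CDX1 libraries. In CPM the EHF+CDX1 libraries (3.56 to 4.98) lay above the CDX1 libraries (0 to 3.38), a log2 difference of 1.19 ± 0.73 with an adjusted p of 0.40 by edgeR, and both overlapped EV.

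Outside the interval, the 16 regions at pathway starts included 0 that passed the edgeR test in any of the 6 comparisons, and the number at an unadjusted p under 0.05 was 2 for EHF+CDX1 against EV (beside 19.0% of all regions), 2 for EHF against EV (4.96%), 1 for CDX1 against EV (3.81%), 2 for EHF+CDX1 against EHF (19.6%), 1 for EHF+CDX1 against CDX1 (17.5%) and 1 for the interaction (9.88%). Over 12887 regions at starts outside the interval, 1469, 541, 400, 1374, 1334 and 829 had such a p in the same order. B2M, named here for its role in class I, held 9, 2 and 2 counts in EV, 17, 10 and 6 in EHF, 10, 21 and 8 in CDX1 and 8, 22 and 11 in EHF+CDX1 libraries. Its log2 differences from EV were 0.79 ± 0.58 (SE) for EHF, 1.12 ± 0.57 for CDX1 and 0.40 ± 0.58 for EHF+CDX1 cells. None of these differences had an unadjusted p under 0.05 by edgeR. The smallest adjusted p in this list was 0.076 (edgeR), for the start of CALR, an endoplasmic reticulum chaperone of class I assembly, in EHF+CDX1 against EV cells at a log2 difference of 1.3.

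HSPA1B, an inducible HSP70 gene in class III, had the highest mean level of any member per region, with 13, 16 and 17 counts in EV, 20, 24 and 28 in EHF, 35, 26 and 17 in CDX1 and 37, 86 and 36 in EHF+CDX1 libraries. Its region is also the longest at 482 bp, so per length it ranked 12 of 77, at 41.9 CPM per kb. It stood 0.53 ± 0.38 above EV in EHF+CDX1 cells on the log2 scale (adjusted p = 0.46, edgeR), with overlapping groups.

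Of the other 9 members with the highest levels, 8 were at starts of genes in the housekeeping list. GPSM3, a G-protein signalling modulator, held 41.8 CPM per kb, CUTA 45.9, PRRC2A 49.5, TUBB (a beta tubulin) 43.5 and KIFC1 (a mitotic kinesin) 41.9, while RNF5, ENSG00000289975, PHF1 and the BRD2 region 667 bp from its start held 36.4, 35.5, 32.5 and 32.0 CPM per kb. Their log2 differences between EHF+CDX1 and EV cells ran from -0.38 ± 0.40 at PRRC2A to 0.73 ± 0.45 at TUBB. RNF5, a ubiquitin ligase of the endoplasmic reticulum, which shares its region with the start of AGPAT1, had 6.59, 9.67 and 10.5 CPM in EV and 16, 13.1 and 14.1 CPM in EHF+CDX1 libraries. These 2 groups did not overlap, and the difference of 0.68 ± 0.42 had an adjusted p of 0.37 by edgeR.

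The comparison of EHF+CDX1 with EV cells asks what both factors together did to accessibility. By edgeR 1 of the 77 members passed the test at an adjusted p under 0.05, beside 2.57% of all regions tested, and it was higher, as were 1.79% of all regions. It was the region at chr6:30163188-30163338, which overlaps an alternative first exon of TRIM15 and ends 208 bp before the canonical start. TRIM15 encodes a protein of the tripartite-motif family. The sequence is shown because it is the called one, on the plus strand, with a CDX-type match TTTATG in capitals. GGAAGT was not found in it.
TRIM15: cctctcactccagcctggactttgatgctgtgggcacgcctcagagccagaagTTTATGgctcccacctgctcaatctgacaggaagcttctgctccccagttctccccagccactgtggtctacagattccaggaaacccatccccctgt

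The TRIM15 region held 1, 1 and 0 counts in EV, 4, 6 and 3 in EHF, 3, 1 and 3 in CDX1 and 9, 28 and 8 in EHF+CDX1 libraries. In CPM the EHF+CDX1 libraries (5.34, 6.32 and 6.64) lay above all others, and the EHF libraries (3.66, 2.44 and 2.74) lay above all EV libraries (1.10, 0.691 and 0). Since every EV library was under the floor, the EHF+CDX1 level was at least 1.85-fold higher than a floor of 3 counts per EV library, and the fitted log2 difference was 3.07 ± 0.94 (adjusted p = 0.0496, edgeR). Against CDX1 cells, also at or under 3 counts in each library, it was at least 2.32-fold higher (adjusted p = 0.22, edgeR), and against EHF cells the log2 difference was 1.07 ± 0.67 (adjusted p = 0.38, edgeR). The call lay next to the threshold, and it did not pass without EHF library 1, CDX1 library 1 or CDX1 library 3 (adjusted p 0.053 to 0.057 by edgeR). Nor did it when any 1 of the EV or EHF+CDX1 libraries was left out (0.062 to 0.22), and the adjusted p was 0.19 by DESeq2 and 0.031 by limma voom.

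The next members by p were a region in an intron of CLIC1, a chloride intracellular channel protein, and the start of FKBPL, an immunophilin-like protein. CLIC1 held 2, 0 and 0 counts in EV and 11, 24 and 4 in EHF+CDX1 libraries, at least 1.55-fold higher (adjusted p = 0.12, edgeR), with 5, 0 and 4 in EHF and 2, 1 and 2 in CDX1 libraries. FKBPL held 3, 1 and 1 counts in EV, 6, 4 and 15 in EHF, 4, 7 and 4 in CDX1 and 12, 19 and 9 in EHF+CDX1 libraries, at least 1.91-fold higher in EHF+CDX1 cells (adjusted p = 0.16, edgeR). The fourth was the start of PRRT1, named after its values were seen, with 9, 10 and 6 counts in EV and 11, 5 and 3 in EHF+CDX1 libraries, and a log2 difference of -1.48 ± 0.61 (adjusted p = 0.17, edgeR). At an unadjusted p under 0.05 stood these 4 members, against 19% of all regions tested. Regions at starts changed less often than that: of the 12887 others at starts, 1469 had such a p by edgeR. Of those 12887, 113 were called higher and 36 lower.

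**Figure D4:**
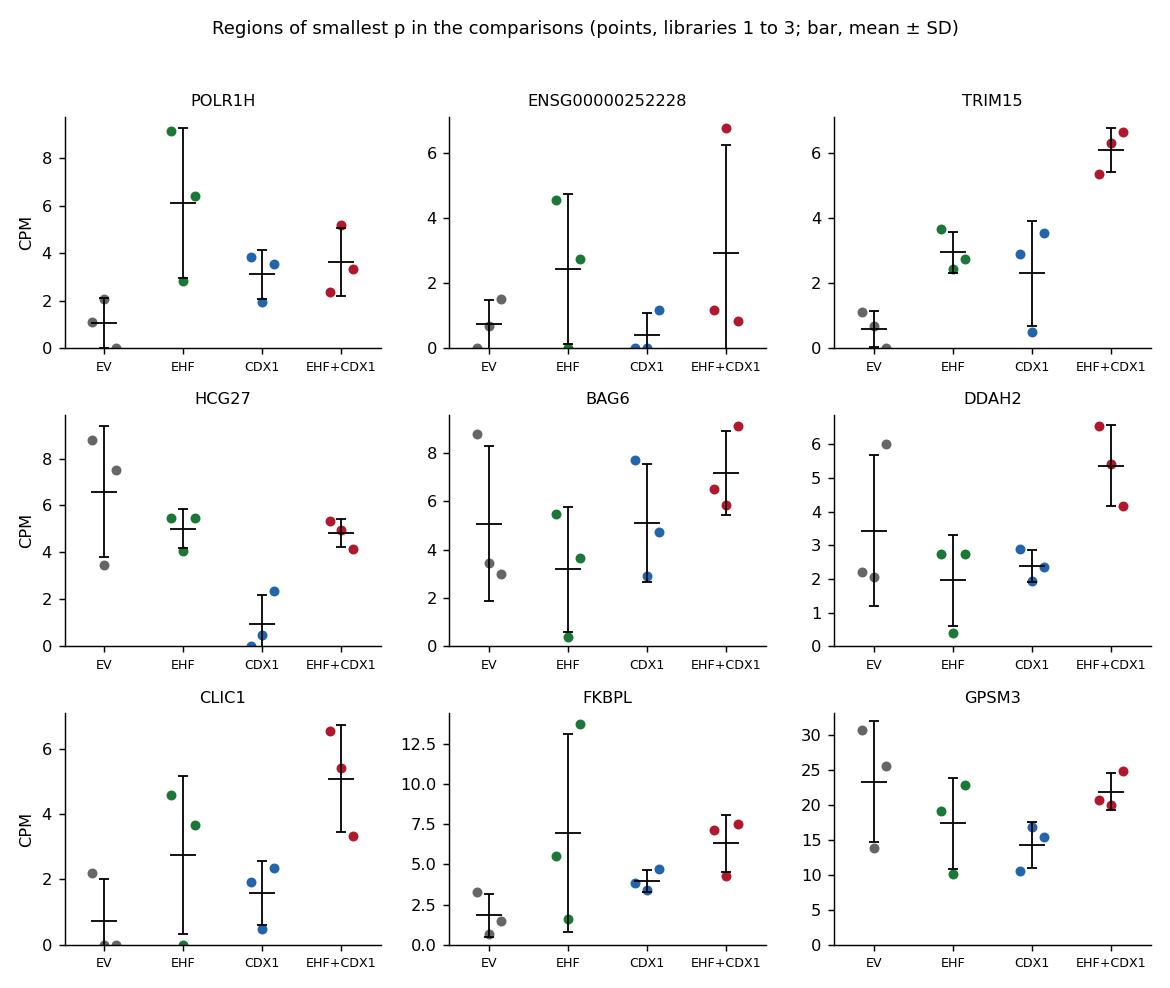
CPM per library (y axis, points for libraries 1 to 3, bar for the mean ± SD) by line (x axis) for the 9 regions that held the 2 smallest p-values in any comparison; bars are cut at 0. TRIM15 lies at 0 to 1.10 CPM in EV and 5.34 to 6.64 CPM in EHF+CDX1 libraries, and HCG27 lies at 0 to 2.37 CPM in CDX1 libraries.

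Most members lay slightly higher in EHF+CDX1 than in EV cells. The fitted log2 difference was above 0 for 58 of 77 (75.3%), against 57.6% of all regions tested, and the median was 0.45 against 0.18. Among all other regions at starts, 60.3% were above 0 and the median was 0.17. With members at the floor in EV set to their bounds or left out, the median over 73 members was 0.32. All 3 EHF+CDX1 libraries lay above all 3 EV libraries at 19 members, against 14.8% of all regions tested, and below them at 1 member against 7.2%. By part, the median was 0.62 over class I, 0.49 over class III, -0.01 over class II and 0.33 over extended class II regions. These part medians use the fitted values without bounds, and most of the 16 members at the floor in EV lie in class I. Less the median of all regions, class I stayed between 0.36 and 0.45 and class II between -0.26 and -0.10 under 5 scalings of the libraries. The 12 regions away from starts had a median of 1.13 and the 65 at starts 0.33. Most of those 12 had every EV library at or under 3 counts, so the 1.13 rests mainly on fits near the floor. Their log2 bounds were lower, such as 0.04 at the PPP1R10 intron region and 0.63 at the CLIC1 intron region. At the region near ENSG00000252228 no bound could be given. The median SE of a single member was 0.58, with 0.60 in class I and 0.91 away from starts. It describes the difference at 1 region and does not measure the error of these medians.

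EHF alone against EV gave 0 called members by edgeR, with 3 at an unadjusted p under 0.05, where 0.00995% of all regions were called and 4.96% had such a p. POLR1H, the RNA polymerase I subunit gene, had the smallest p. It held 1, 3 and 0 counts in EV, 10, 7 and 7 in EHF, 4, 4 and 3 in CDX1 and 4, 23 and 4 in EHF+CDX1 libraries, so EHF cells were at least 1.86-fold higher than the EV floor (adjusted p = 0.89, edgeR). FKBPL, at least 2.11-fold higher, and HLA-E, described above, were the others. The median log2 difference was 0.24 against 0.01 over all regions, and 0.14 over 64 members with those at the floor in EV set to their bounds or left out. Among all other regions at starts the median was 0.13, with 60.1% above 0, beside 71.4% of the members. Of the members, 5 against 5.98% of all regions had every EHF library above every EV library, while 0 members against 3.96% had every one below. By part the medians of the fitted values, without bounds, were 0.36 in class I, 0.33 in class III, -0.04 in class II and 0.03 in the extended class II part.

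CDX1 alone against EV also gave 0 called members by edgeR, as it gave 0% of all regions, and 1 member had an unadjusted p under 0.05 against 3.81% of all regions. That member was the start of HCG27, a non-coding gene of the HLA complex group family. It held 8, 5 and 5 counts in EV, 6, 10 and 6 in EHF, 0, 1 and 2 in CDX1 and 9, 22 and 5 in EHF+CDX1 libraries. CDX1 cells were the only line with all libraries at the floor, at least 2.51-fold lower than EV (adjusted p = 1, edgeR). In EHF+CDX1 cells the level was 4.82 ± 0.608 CPM, at least 1.84-fold above the CDX1 floor (adjusted p = 0.065, edgeR). HCG27 is among the 4 members with a near-identical copy elsewhere on chromosome 6, and had 2 of them. GPSM3 and the BRD2 region came next, at log2 differences of -0.65 ± 0.38 and -0.69 ± 0.42. BRD2 encodes a bromodomain protein that binds acetylated histones. In all, 2 members had every CDX1 library above every EV library, against 4.93% of all regions, and 4 had every one below, against 3.89%.

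Regions of the class II part stood lowest in CDX1 cells. Only 1 of them lies at a class II HLA gene, HLA-DMA, and the TAP1, TAP2, PSMB9 and BRD2 starts are among the others. None had an unadjusted p under 0.05 against EV by edgeR. Of the 9, 8 had a fitted difference from EV below 0, with a median of -0.54, while the medians of class I, class III and extended class II were 0.02, -0.08 and 0.22 and that of all regions was 0. For all other regions at starts the median was 0.06. Summed, the class II regions held 64, 65 and 44 counts in EV and 53, 73 and 32 in CDX1 libraries, or 36.5 ± 8.22 and 25 ± 5.10 CPM per kb. Those groups overlapped, since EV library 2 stood at 27.1 and CDX1 library 1 at 30.8 CPM per kb. The median less that of all regions ran from -0.59 to -0.44 under the 5 scalings.

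Adding CDX1 to EHF, or EHF to CDX1, gave 0 called members in either comparison by edgeR, with 3 and 9 members at an unadjusted p under 0.05. The shares over all regions were 4.35% called and 19.6% at such a p for EHF+CDX1 against EHF, and 2.6% and 17.5% for EHF+CDX1 against CDX1. Called as higher were 3.65% and 2.06% of all regions. Of the 12887 other regions at starts, 1374 and 1334 had an unadjusted p under 0.05. Against EHF, the smallest p-values belonged to BAG6 (a protein quality control factor), DDAH2 and ABHD16A (a lipase). BAG6 held 6, 1 and 4 counts in EHF and 11, 26 and 11 in EHF+CDX1 libraries, a log2 difference of 1.37 ± 0.60 (adjusted p = 0.18, edgeR). DDAH2 held 3, 1 and 3 counts in EHF libraries, at or under the floor, and 11, 24 and 5 in EHF+CDX1 libraries, at least 2.40-fold higher (adjusted p = 0.18, edgeR). ABHD16A ran the other way, with 12, 15 and 6 counts in EHF and 5, 15 and 3 in EHF+CDX1 libraries, and a log2 difference of -1.24 ± 0.57 (adjusted p = 0.20, edgeR).

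Against CDX1 cells the 9 members at an unadjusted p under 0.05 were all higher in EHF+CDX1 cells. HCG27 led, followed by an intergenic region near ENSG00000252228 and the start of LSM2, a subunit of the U6 small nuclear ribonucleoprotein. The region near ENSG00000252228 held 0, 0 and 1 counts in CDX1 and 2, 30 and 1 in EHF+CDX1 libraries, so EHF+CDX1 library 2 carried nearly all of its counts. LSM2 stood at 2.89, 2.89 and 5.91 CPM in CDX1 and 7.72, 5.64 and 14.1 CPM in EHF+CDX1 libraries, overlapping groups with a log2 difference of 1.21 ± 0.55 (adjusted p = 0.22, edgeR). The median over all 77 was 0.49 against 0.13 for all regions, 66 of 77 differences were above 0, and 17 members had every EHF+CDX1 library above every CDX1 library, against 13.4% of all regions, and 0 had every one below, against 7.04%. Against EHF the median was 0.17 beside 0.09, and 6 members against 13% of all regions had every EHF+CDX1 library above every EHF library, with 1 below against 7.71%. Among all other regions at starts the median was 0.09 against CDX1, with 56.3% above 0, and 0.01 against EHF. Both comparisons use the same EHF+CDX1 libraries, and those with EV share the EV libraries, so the counts are not independent of each other.

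The interaction gave 0 called members by edgeR, against 0.123% of all regions (0.0696% with a positive value), and 1 member, HCG27, had an unadjusted p under 0.05 (adjusted p = 0.28), against 9.88% of all regions. GPSM3 and DDAH2 came next, at 1.02 ± 0.52 and 2.09 ± 1.13 on the log2 scale (adjusted p = 0.51 and 0.54, edgeR). DESeq2 and limma voom on quantile-normalised values called 0 members in the interaction and in the 4 comparisons in which edgeR called 0. Their numbers of members at an unadjusted p under 0.05 were 2 and 3 for EHF against EV (beside 3.29% and 3.91% of all regions), 1 and 1 for CDX1 against EV (2.25% and 3.88%), 2 and 3 for EHF+CDX1 against EHF (12.9% and 19.5%), 7 and 7 for EHF+CDX1 against CDX1 (11.3% and 19.8%), and 2 and 2 for the interaction (6.81% and 11.4%).

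**Figure D5:**
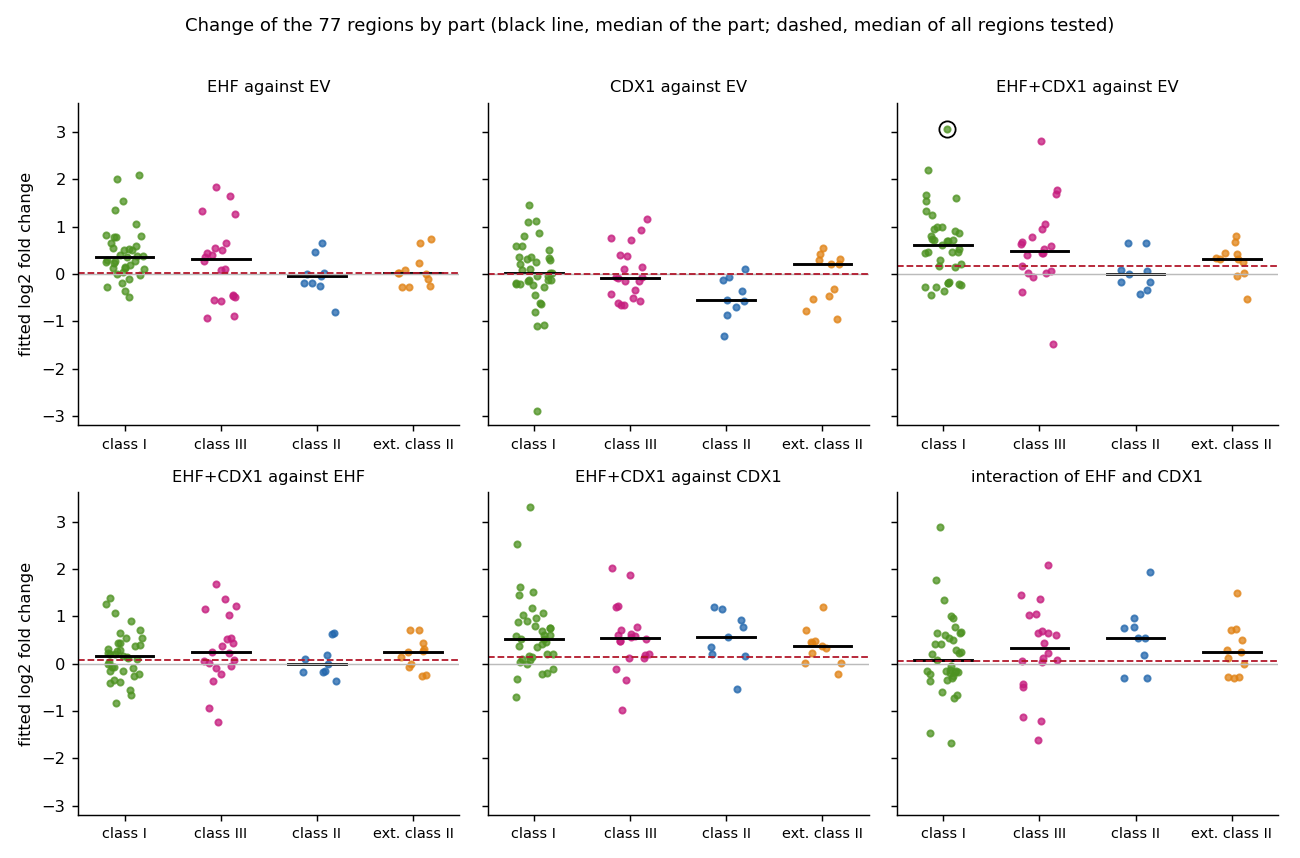
Fitted log2 fold changes (y axis) of the 77 regions by part (x axis) in the 5 pairwise comparisons and the interaction, with the median of each part as a black line, the median of all tested regions dashed, and the called TRIM15 region circled. Class II regions lie lowest in CDX1 against EV (median -0.54), and class I regions lie at a median of 0.62 in EHF+CDX1 against EV. Members at the floor are included at their fitted values.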

How the data were processed

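ATAC-seq libraries of the 4 HCT116 lines were analysed from the deposited table of raw counts. Per the labels and the study's methods, the authors mapped reads to hg38, called peaks per sample and merged them, and counted uniquely mapped reads per region, with Subread 2.0.0, HOMER 4.7, featureCounts 2.0.0 and limma named in the submitters' processing notes. Duplicate removal and read shifting are not given in the sources used here. The deposited log2 values per sample, which the authors made as log2 CPM over 27827 regions, were used only to check columns against the counts.

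The 30154 regions that reached a CPM of 3 in any library were fitted in edgeR 4.0.16 (R 4.3.3) with TMM factors, a coefficient per line over all 12 libraries and robust quasi-likelihood tests, adjusted by Benjamini-Hochberg over all of them at 0.05. DESeq2 1.42.0, limma 3.58.1 (voom) and other settings were alternatives, and the procedure was tested on simulated data. A group with all libraries at or under 3 counts was set to 3 counts per library for a bound on the fold change. Library totals were 567366 to 2443334 counts and set the precision of each value. Annotation was GENCODE 44, overlaps were found with bedtools 2.31.1 and copies with blastn 2.17.0. RefSeq promoters matched 134 of the 160 coding genes.

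Class I ended with MICB, class III at BTNL2 and class II at COL11A2, by the middle of a region. A region was named for the coding gene with the nearest start within 1 kb, otherwise for the nearest start of any gene. Regions named are those at starts of class I, class II and antigen-processing genes, the 10 of highest mean log2 CPM, and per comparison those called or, where fewer than 3 were called, the 3 of smallest p. Members and gene lists were chosen with earlier results of these data known. Some regions named by this rule are not reported here.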

Additional observations from a re-analysis of the deposited data

How the results depend on the processing

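Of EHF+CDX1 against EV, 0 members passed the test with library size alone, by DESeq2, with a CPM of 3 in at least 2 libraries or with the robust option off, and 0 with replicate 2 of every group left out, which was chosen after seeing the data. The share of all regions that passed was 0.146%, 0.322%, 2.3%, 2.22% and 0.269% in these settings, in the same order. Without EHF+CDX1 library 2 alone it was 0.215%, so the 2.57% of the main fit depended on the setting and on that library. With 1 library left out the number was 0 to 1, and without EHF+CDX1 library 1 the member was not TRIM15 but the PRRT1 start (adjusted p = 0.038, edgeR). The adjusted p of TRIM15 ran from 0.024 to 0.54 over all settings. For EHF+CDX1 against CDX1 the number was 0 to 1, the 1 being without CDX1 library 3. The cause was not tested. With library size alone the median log2 difference of the members was -0.41 for EHF and -0.85 for CDX1 against EV, 0.77 and 1.22 for EHF+CDX1 against EHF and CDX1, and 1.54 for the interaction, beside medians of all regions of -0.50, -0.65, 0.65, 0.82 and 1.29. With 1 library left out, the medians ran from 0.15 to 0.59 for EHF+CDX1 against EV, -0.09 to 0.45 for EHF against EV, -0.31 to 0.25 for CDX1 against EV, -0.14 to 0.31 for EHF+CDX1 against EHF, 0.16 to 0.69 for EHF+CDX1 against CDX1 and -0.04 to 0.48 for the interaction. The sign turned without EV library 2 for EHF against EV, without EV library 1 or 3 or CDX1 library 2 for CDX1 against EV, and without EHF library 2 for EHF+CDX1 against EHF and for the interaction.

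Replicate numbers recur in all lines, and the sample indices in the titles run through all lines of each number in turn. What this order stands for is not given, and nothing says that the numbers mark shared cultures. Same-numbered libraries correlated from -0.01 to 0.30 over 18 pairs, 5 of them over 0.1, and 12 of 12 libraries correlated best with their own number, a hint from the data and not the design. With the replicate block, 2 members (TRIM15 and the CLIC1 intron region) passed the edgeR test for EHF+CDX1 against EV and 1 (HCG27) for EHF+CDX1 against CDX1, where 5.67% and 4.12% of all regions passed it, beside 2.57% and 2.6% without the block.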
